A study of Homo sapiens with 6 samples.

Results

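The genes of cholesterol and fatty acid synthesis were followed in H661 cells, a human large cell lung carcinoma line, after knockdown of the transcription factor SALL4. Membership was by name: 32 genes, of which 19 are enzymes or carriers of the sterol branch, 8 belong to the fatty acid branch and 5 are regulators of both. Of the 18404 genes carried by a probe set with exactly 1 gene symbol, 30 were members. FDFT1 had no probe set under its symbol alone and was not analysed here, and HSD17B7 was measured only by a probe set that it shares with the pseudogene HSD17B7P2. STARD4, a carrier of sterols between membranes, stood at the floor of the deposited values, an intensity of 8, on all 6 arrays, which left 29 members with a measurable level.

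Cells make cholesterol from acetyl-CoA through mevalonate, farnesyl diphosphate, squalene and lanosterol, and they make fatty acids from the same acetyl-CoA through malonyl-CoA. Both branches are driven by the sterol regulatory element binding proteins, SREBPs, which are the products of SREBF1 and SREBF2. SCAP carries the SREBPs to the Golgi for cleavage, and the INSIG proteins hold SCAP in the endoplasmic reticulum when sterols are abundant. Carcinoma cells draw on both branches for membrane growth.

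Cells in both groups carried a lentiviral short hairpin RNA, a scrambled one in Scr-sh and one against SALL4 in SALL4-sh, with 3 Affymetrix arrays per group. The methods describe a pLKO.1puro vector, and only 1 hairpin against SALL4 was profiled in 1 cell line. The labels and the methods differ in the serum concentration of the medium and in the RNA extraction reagent. The study gives a general statement that results come from independent experiments, but neither it nor the labels say whether each array had a culture of its own, so the p-values refer to the scatter of these samples alone, and that scatter may be technical.

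SALL4 checked the labels. Its normalized intensity was 125.5, 104 and 130.2 in Scr-sh 1, 2 and 3 and 33.6, 31.9 and 26.5 in SALL4-sh 1, 2 and 3, a log2 fold change of -1.97 (limma adjusted p = 0.0159). Correlations between arrays of a group ran from 0.967 to 0.983, and those between groups reached at most 0.959. Of 7 carcinoma cell markers, of which VIM and CDH2 are mesenchymal, EPCAM and VIM were bright and KRT8 was at or near the floor. CDH1, a weak signal, was called higher (log2 fold change 0.91, limma adjusted p = 0.0456). EPCAM (0.43) and VIM (-0.35) lay on opposite sides of 0 and were not called, nor were the others. The summed intensity of the 7, most of it from EPCAM and VIM, was 2130 to 2309 in Scr-sh and 1976 to 2359 in SALL4-sh. All 5 endothelial markers and 3 of 5 leukocyte markers, PTPRC among them, stood at the floor on every array. Of the others CD14 was near the floor, and CD68 had 34.0, 69.9 and 71.6 in Scr-sh and 33.0, 35.4 and 30.5 in SALL4-sh. The 6 fibroblast markers summed to 367 to 450.3 in Scr-sh and 284 to 350.5 in SALL4-sh, with DCN at the floor throughout. COL1A1 was called lower over all genes (limma adjusted p = 0.0387) but not with the filter described below (limma adjusted p = 0.0735). COL1A2 was separated downward (log2 fold change -0.79, limma adjusted p = 0.132, and 0.0301 with that filter). COL3A1 had 0.24 with overlapping groups. The part of these markers in the results below was not tested.

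Called members lay in both directions. In the sterol branch ACAT2, the entry enzyme, fell by 43.1%, while every other called or separated member had higher values in SALL4-sh. In the fatty acid branch ACACA rose by 75.8%, and FADS1 and ACLY had lower values in SALL4-sh. Over all members limma called 1 gene higher and 1 lower at an adjusted p under 0.05, where 2.51% of all genes tested were called in either direction. After removal of the dimmest genes, those up to the 25th percentile of their mean intensity, 2 were called higher and 2 lower, beside 11.5% of the 13803 genes then tested. Both calls over all genes were lost, with the direction kept, when any 1 array was left out (limma adjusted p of 0.0664 to 0.107 for ACAT2 and 0.0511 to 0.127 for ACACA). In cell cultures measured in bulk, fewer cells that express a gene and less RNA per cell cannot be told apart.

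**Figure D1:**
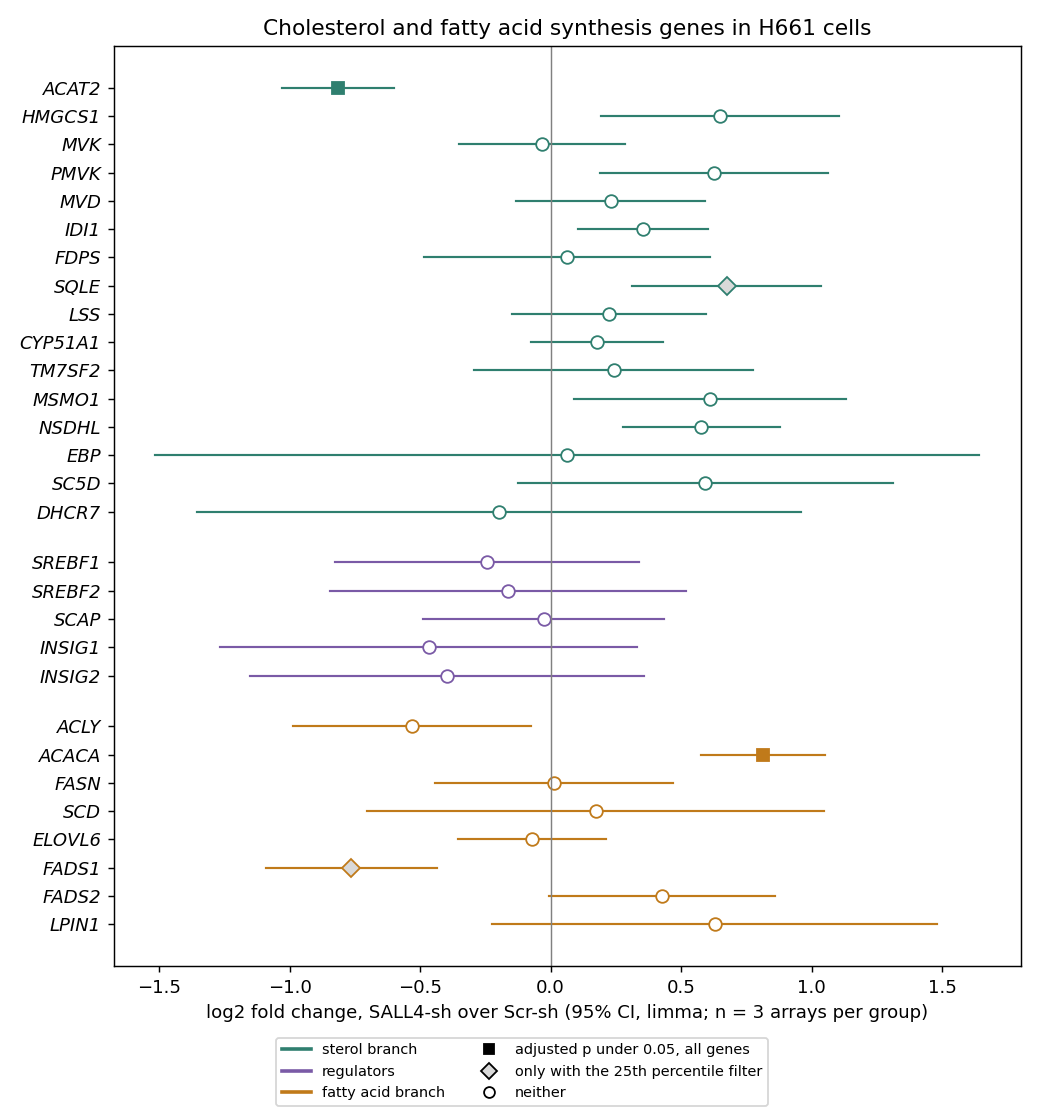
Log2 fold changes of the 29 members above the floor, SALL4-sh over Scr-sh, with 95% confidence intervals from limma (3 arrays per group). ACAT2 (-0.81) and ACACA (0.81) passed the test over all genes, SQLE (0.68) and FADS1 (-0.76) passed it only after the intensity filter, and EBP and DHCR7 had the widest intervals.

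The sterol branch opens with ACAT2, the cytosolic thiolase that joins acetyl-CoA units to acetoacetyl-CoA. ACAT2 had intensities of 112, 124 and 124 in Scr-sh 1 to 3 and of 61.9, 71.8 and 70.9 in SALL4-sh 1 to 3. The groups did not overlap, and the highest SALL4-sh value lay far below the lowest Scr-sh value. The log2 fold change was -0.81 (SE, the standard error, 0.08, limma adjusted p = 0.0297). ACAT2 was the only sterol branch member called over all genes, where 1.33% of genes were called lower.

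HMGCS1, the synthase of the next step, makes HMG-CoA from acetoacetyl-CoA. Its intensity was 155, 132 and 187 in Scr-sh 1 to 3 and 212, 264 and 265 in SALL4-sh 1 to 3. All SALL4-sh values lay above all Scr-sh values. The log2 fold change was 0.65 (SE 0.17), which did not pass the test (limma adjusted p = 0.160, and 0.0555 with the intensity filter). ACAT2 and HMGCS1, which act in sequence, lay on opposite sides of 0.

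In the mevalonate segment PMVK, phosphomevalonate kinase, had intensities of 20.8, 22.7 and 23.3 in Scr-sh and of 38.6, 27.3 and 38.2 in SALL4-sh. The SALL4-sh arrays were all higher, with SALL4-sh 2 the nearest to the controls. Its log2 fold change of 0.62 (SE 0.16) did not pass the test (limma adjusted p = 0.158, and 0.0595 with the filter). IDI1, the isomerase that interconverts the 2 building blocks of isoprenoids, is given by its values, although its difference lies below the size set for named genes. It had 93.3, 108 and 106 in Scr-sh and 135, 139 and 119 in SALL4-sh. The groups were separated, with a log2 fold change of 0.35 (limma adjusted p = 0.161). The kinase MVK (-0.03), the decarboxylase MVD (0.23) and the farnesyl diphosphate synthase FDPS (0.06) had smaller log2 fold changes, and their groups overlapped.

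SQLE, the epoxidase that commits squalene to sterols, had intensities of 174, 169.6 and 178 in Scr-sh 1 to 3 and of 292, 319 and 229.9 in SALL4-sh 1 to 3. The Scr-sh arrays were nearly equal and all SALL4-sh arrays were higher, SALL4-sh 3 by the least. SQLE was 1.60-fold higher (95% confidence interval 1.24 to 2.05), with a log2 fold change of 0.68 (SE 0.14). It did not pass over all genes (limma adjusted p = 0.102) and did with the filter (adjusted p = 0.0354), where 5.95% of genes were called higher. LSS, which closes the squalene epoxide to lanosterol, had overlapping groups and a log2 fold change of 0.22.

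After lanosterol, the largest log2 fold changes among separated members were those of the C4-demethylation enzymes. MSMO1, the methyl oxidase, had intensities of 73.6, 55.3 and 87.7 in Scr-sh and of 100.5, 107 and 118 in SALL4-sh. NSDHL, the dehydrogenase that follows it, had 56.8, 51.6 and 47.5 in Scr-sh and 73.1, 72.1 and 87.7 in SALL4-sh. Neither gene had overlapping groups. The log2 fold change of MSMO1 was 0.61 (SE 0.20) and that of NSDHL 0.58 (SE 0.11). Neither passed the limma test over all genes (adjusted p = 0.223 and 0.0963) or with the filter (adjusted p = 0.0828 and 0.0527).

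CYP51A1, the lanosterol demethylase, had 227, 216 and 213 in Scr-sh and 233, 229 and 282 in SALL4-sh. These groups were separated by a narrow gap, with a log2 fold change of 0.18. The weaker of its 2 probe sets had overlapping groups and a log2 fold change of -0.10. TM7SF2, a sterol reductase, had a log2 fold change of 0.24 with overlapping groups. For the late enzymes EBP, the sterol isomerase, SC5D, the desaturase, and DHCR7, the reductase of 7-dehydrocholesterol, single control arrays moved the result, as described beside the regulators.

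In all, 7 of the 16 sterol branch members above the floor had no SALL4-sh value at or below any Scr-sh value and 1, ACAT2, had the reverse, while over all genes above the floor 15% were separated upward and 12.5% downward. The exact two-sided permutation test over the 20 labelings gave p = 0.1 for each separated member, the smallest p possible here. Without adjustment, limma gave a p under 0.05 to 6 members in the higher and 1 in the lower direction, where 9.55% and 7.87% of all genes passed. The median log2 fold change of the branch was 0.24, with 13 positive and 3 negative members, beside a median of 0.01 over all genes above the floor.

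**Figure D2:**
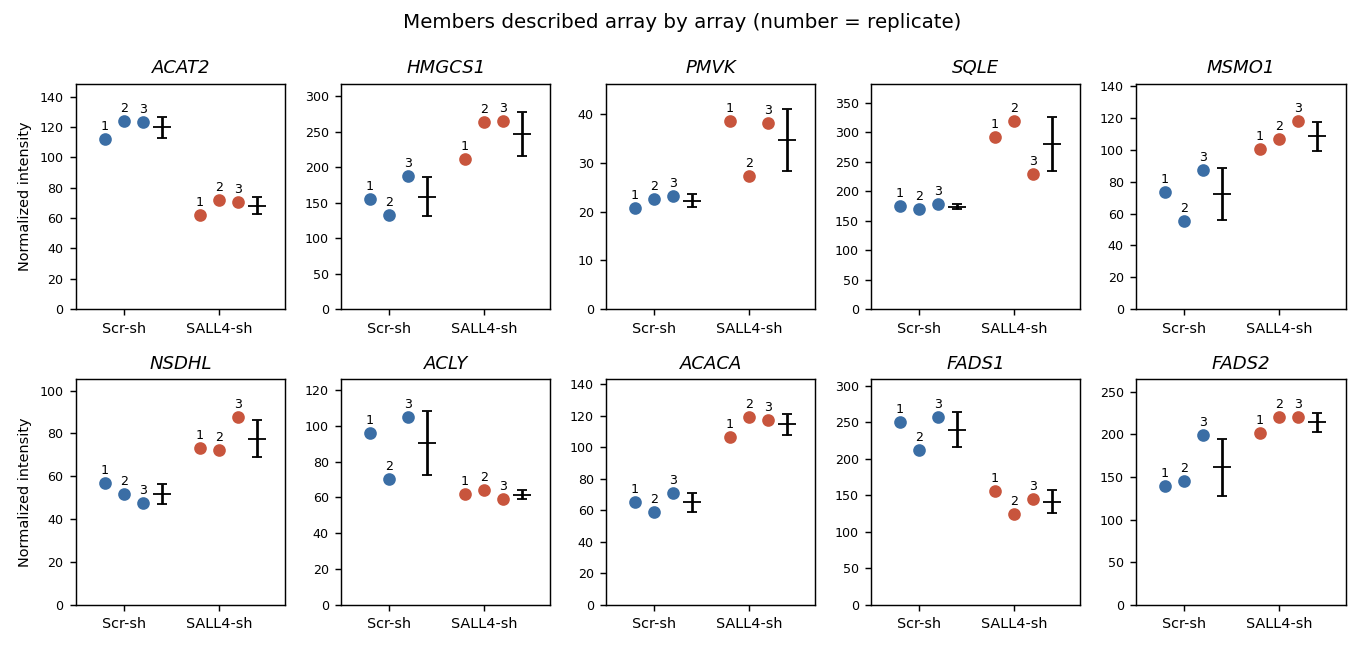
Normalized intensity of 10 members on each array, on linear axes that start at 0. Numbered points are replicates 1 to 3 and the bars give the group mean and SD (n = 3). None of these members had overlapping groups, and the SALL4-sh points lie lower for ACAT2, ACLY and FADS1 and higher for the others.

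The 250 bases before the transcription start were read for 28 of the 32 members from RefSeq promoters of GRCh38.p14, which also covered HSD17B7. SREBPs bind promoters together with NF-Y, which recognises CCAAT, and Sp1, which recognises GGGCGG. Both strands were searched for these letters and for TCACNCCAC, letters of a sterol regulatory element. Windows of 3 sterol genes that were separated upward are shown because they hold CCAAT letters, in capitals as CCAAT or its reverse complement ATTGG, and that of SREBF2 for TCACCCCAC, also in capitals.
HMGCS1: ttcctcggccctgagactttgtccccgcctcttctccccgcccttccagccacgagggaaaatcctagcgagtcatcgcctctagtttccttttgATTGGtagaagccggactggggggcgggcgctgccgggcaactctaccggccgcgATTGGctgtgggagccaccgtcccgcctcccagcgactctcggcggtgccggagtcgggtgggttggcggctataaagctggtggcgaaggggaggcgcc
MSMO1: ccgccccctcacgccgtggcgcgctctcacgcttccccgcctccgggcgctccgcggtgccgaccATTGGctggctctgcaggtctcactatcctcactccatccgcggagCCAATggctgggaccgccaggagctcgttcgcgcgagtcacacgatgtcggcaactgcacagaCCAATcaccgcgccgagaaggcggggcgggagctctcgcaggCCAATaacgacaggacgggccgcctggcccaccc
NSDHL: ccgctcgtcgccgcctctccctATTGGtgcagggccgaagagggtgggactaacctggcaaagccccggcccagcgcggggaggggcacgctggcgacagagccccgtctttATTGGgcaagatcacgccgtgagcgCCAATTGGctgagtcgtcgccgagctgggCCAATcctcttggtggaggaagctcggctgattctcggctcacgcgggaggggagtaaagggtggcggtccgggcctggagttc
SREBF2: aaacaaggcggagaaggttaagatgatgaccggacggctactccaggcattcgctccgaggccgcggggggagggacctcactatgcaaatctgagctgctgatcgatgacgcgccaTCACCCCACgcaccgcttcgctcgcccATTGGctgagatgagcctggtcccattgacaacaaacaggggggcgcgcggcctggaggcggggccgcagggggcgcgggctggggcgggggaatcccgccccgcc

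The HMGCS1 window is chr5:43313413-43313662 on the minus strand, the first of 2 annotated starts, and holds the letters at 2 places, while that of the second start holds none. PMVK and CYP51A1, also separated upward, have no such letters in their windows, and ACAT2 and SQLE were not among the promoters read. IDI1, separated upward as well and not shown, holds them at 3 places before start 2, at 2 before start 3 and at none before start 1. Sterol members with overlapping groups hold the letters too. They occur at 5 places in MVK, at 3 in FDPS, MVD and EBP, and at 1 or 2 in a window of DHCR7, LSS, TM7SF2 and SC5D. The MSMO1 window, chr4:165327419-165327668 on the plus strand, holds them at 4 places. The NSDHL window, chrX:152830813-152831062 on the plus strand, holds them at 5 places, a pair of which overlap. CCAAT or ATTGG was found in 16 of 21 sterol branch windows (76.2%), in 5 of 13 fatty acid windows (38.5%) and in 2 of 6 regulator windows (33.3%), beside 32% of all 35116 promoter windows of the same length. GGGCGG, on either strand, was found in 90.5%, 76.9% and 100% of these windows and in 42.6% of all windows. TCACNCCAC was found in 1 member, SREBF2 (chr22:41832855-41833104, plus strand), and in 0.883% of all windows. These counts describe letters only. They use no expression value, and windows of 1 gene can overlap.

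None of the 5 regulators was called in either fit or had an unadjusted p under 0.05 from limma, and in each of them the groups overlapped. SREBF2, which encodes the SREBP that favours sterol genes, had intensities of 74.5, 49.4 and 91.8 in Scr-sh 1 to 3 and of 64.7, 57.8 and 64.5 in SALL4-sh 1 to 3. SREBF1, whose products favour fatty acid genes, had 29.4, 19.0 and 31.7 in Scr-sh and 22.5, 21.6 and 22.0 in SALL4-sh. In both genes Scr-sh 2 was the lowest of the 6 arrays and the other controls were the highest. INSIG1, itself a target of the SREBPs, had 85.2, 41.5 and 69.5 in Scr-sh and 46.2, 42.2 and 47.7 in SALL4-sh, the same order. INSIG2, its relative, had 155, 101 and 78.7 in Scr-sh and 91.2, 78.9 and 74.7 in SALL4-sh, where Scr-sh 3 lay among the SALL4-sh arrays. SCAP ranged from 33.2 to 46.2 in Scr-sh and from 33.7 to 41.5 in SALL4-sh. The log2 fold changes were -0.16 for SREBF2, -0.24 for SREBF1, -0.47 for INSIG1, -0.40 for INSIG2 and -0.03 for SCAP. Their adjusted p from limma ran from 0.573 upward.

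Scr-sh 2 stood apart from the other controls in many members. It was the lowest of the 6 arrays in 16 of 29 members (55.2%), beside 23.0% of all genes above the floor. The genes that follow were singled out after their values were seen. EBP had 210.5, 50.8 and 113 in Scr-sh and 142, 94.0 and 103 in SALL4-sh, so that the controls spanned more than the knockdown arrays. DHCR7 had 189, 66.4 and 142 in Scr-sh and 113, 106 and 98.1 in SALL4-sh, with Scr-sh 2 below and the other controls above all SALL4-sh arrays. SC5D ran the other way, with 28.3, 50.0 and 27.7 in Scr-sh and 51.2, 54.0 and 48.7 in SALL4-sh, so that Scr-sh 2 lay among the SALL4-sh values. Against the mean of the other controls, Scr-sh 2 differed on the log2 scale by -1.60 in EBP, -1.31 in DHCR7, -1.01 in SCD, -0.89 in INSIG1, -0.74 in SREBF2 and 0.84 in SC5D.

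Without Scr-sh 2, limma called SC5D higher (log2 fold change 0.87, adjusted p = 0.0309), SREBF1 lower (-0.47, adjusted p = 0.0456) and ACLY lower (-0.70, adjusted p = 0.0450). With another array left out, 23 to 48 of all 18404 genes were called higher and 29 to 70 lower, beside 231 and 173 without Scr-sh 2. The same fit lost ACAT2 (-0.79, adjusted p = 0.0664) and ACACA (0.74, adjusted p = 0.0511). INSIG1 then had -0.76 (adjusted p = 0.0887), and passed when the filter was used as well (adjusted p = 0.0312). The log2 fold change of EBP, 0.06 over all arrays, was -0.47 without Scr-sh 2, 0.56 without Scr-sh 1 and -0.02 after cyclic loess. That of DHCR7, -0.20 over all arrays, was -0.63 without Scr-sh 2 and 0.12 without Scr-sh 1. SCD had -0.16 without Scr-sh 2. EBP, DHCR7 and SCD were called in none of these fits. The summed intensity of 10 interferon-stimulated genes also moved with these arrays. It was 4215 in Scr-sh 2, from 2045 upward in the other controls and 134 to 204.5 in SALL4-sh. None of the 10 genes was at the floor on all arrays, and MX1 was near it. Limma called 5 of them lower over all genes, beside 1.33% of all genes. With the filter it called lower all 9 that were then tested, beside 5.54% of all genes. The part of these genes in the member values was not tested.

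**Figure D3:**
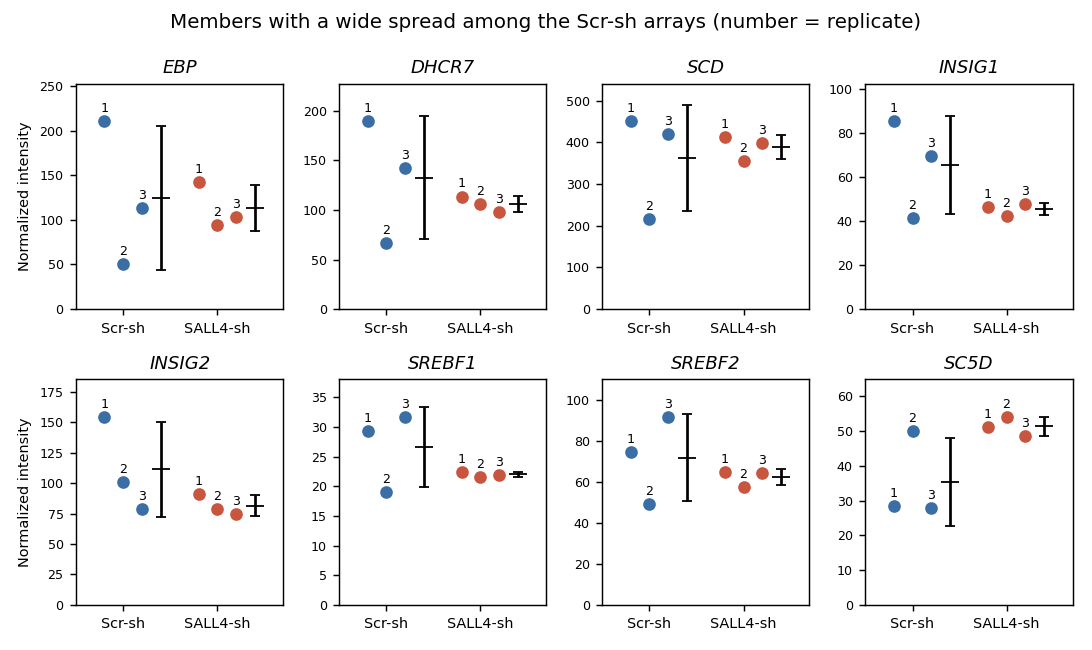
Members for which the Scr-sh 2 array stood apart or that regulate the pathway, plotted as intensity by array. The Scr-sh 2 point is the lowest of the 6 arrays for EBP (50.8), DHCR7 (66.4), SCD (216), INSIG1 (41.5), SREBF1 (19.0) and SREBF2 (49.4), and the highest of the Scr-sh points for SC5D (50.0).

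The fatty acid branch begins with ACLY, which cleaves cytosolic citrate to acetyl-CoA. ACLY had intensities of 95.8, 70.2 and 105 in Scr-sh 1 to 3 and of 61.8, 64.2 and 59.0 in SALL4-sh 1 to 3. All SALL4-sh values lay below all Scr-sh values, with Scr-sh 2 the nearest. The log2 fold change was -0.53 (SE 0.17), which did not pass the test (limma adjusted p = 0.225, and 0.106 with the filter).

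ACACA, the carboxylase that makes malonyl-CoA and commits acetyl-CoA to fatty acids, had 65.4, 59.1 and 71.2 in Scr-sh and 107, 119 and 118 in SALL4-sh. The groups were far apart and the arrays of each lay close together. ACACA rose 1.76-fold (95% confidence interval 1.49 to 2.07), with a log2 fold change of 0.81 (SE 0.09, limma adjusted p = 0.0338). It was the only member called higher over all genes, where 1.18% of genes were called higher. FASN, the synthase that uses malonyl-CoA, had a log2 fold change of 0.01 (95% confidence interval of the fold 0.735 to 1.39), so the data leave room for a change of that size in either direction.

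Among the desaturases FADS1, the delta-5 desaturase of polyunsaturated fatty acids, had 250.5, 213 and 257 in Scr-sh and 156, 124 and 145 in SALL4-sh. All SALL4-sh arrays were lower, and the log2 fold change was -0.76 (SE 0.12). FADS1 did not pass over all genes (limma adjusted p = 0.0654) and did with the filter (adjusted p = 0.0198), where 5.54% of genes were called lower. FADS2, the delta-6 desaturase of the same pathway and a neighbour of FADS1 in the genome, was added after its values were seen. FADS2 had 139, 145 and 199 in Scr-sh and 201, 220.2 and 219.9 in SALL4-sh. These groups were separated only narrowly, and the log2 fold change of 0.43 did not pass the test (limma adjusted p = 0.294).

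SCD, the delta-9 desaturase, had 450.5, 216 and 419.6 in Scr-sh and 413, 356 and 397 in SALL4-sh, with overlapping groups and a log2 fold change of 0.17. ELOVL6, an elongase of long-chain fatty acids, had a log2 fold change of -0.07. LPIN1, a phosphatidate phosphatase, had 28.5, 17.8 and 20.3 in Scr-sh and 44.5, 36.2 and 23.7 in SALL4-sh. SALL4-sh 3 lay within the control range, and the log2 fold change of 0.63 did not pass the test (limma adjusted p = 0.445). Of the 8 members of the branch, 2 were separated upward, 2 downward and 4 overlapped, where 27.5% of all genes above the floor were separated either way, and the median log2 fold change was 0.09.

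The medians of both branches can be set side by side on each array as log2 differences from the mean of the Scr-sh arrays. The sterol branch stood at 0.03, -0.09 and 0.08 in Scr-sh 1 to 3 and at 0.41, 0.32 and 0.24 in SALL4-sh 1 to 3. The fatty acid branch stood at 0.04, -0.23 and 0.18 and at 0.18, 0.10 and 0.02. The regulators stood at 0.17, -0.45 and 0.28 and at -0.22, -0.27 and -0.25. The SALL4-sh arrays lay above all controls for the sterol branch and within the control range for the other groups of genes. The replicate SD was 0.12 for the sterol median and 0.20 for the fatty acid median, and that of their difference within an array was not computed. The sterol median exceeded the fatty acid median by 0.14 on the log2 scale. It was 0.26 without Scr-sh 2, where the fatty acid median was -0.10, and 0.08 without Scr-sh 3. Because the members were chosen with earlier results of these data known, these medians are a description and were not tested.

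**Figure D4:**
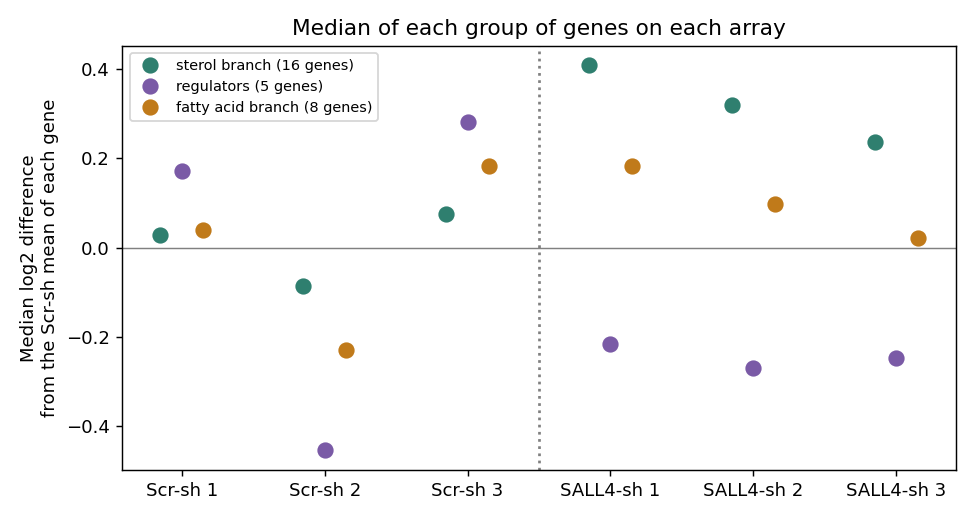
Median over the members of each branch, on each array, of the log2 difference from the mean of the 3 Scr-sh arrays. The sterol branch lies between 0.24 and 0.41 on the SALL4-sh arrays, and Scr-sh 2 is the lowest control for each branch, most of all for the regulators (-0.45).

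Other genes of lipid metabolism were read from 6 lists, 83 genes in all, of which 75 were above the floor. Limma called 3 of them higher and 1 lower over all genes, and 8 higher and 8 lower with the filter, beside 2.51% and 11.5% of all genes in either direction. With any 1 array left out, 0 or 1 of them was called higher and 1 lower. Among these lipid genes the smallest p in the fit over all genes was that of SOAT1, the acyltransferase that stores cholesterol as esters. With the filter the smallest was that of HADHA, described below. SOAT1 had 132, 135 and 127 in Scr-sh and 74.1, 72.1 and 72.6 in SALL4-sh. It fell by 44.5% (log2 fold change -0.85, limma adjusted p = 0.00485), with nearly no spread within the groups. It was the only gene called over all genes among 14 measured genes of sterol efflux, storage and oxysterols. With the filter ABCA1, the exporter that loads cholesterol onto lipoproteins, was also called lower (-1.02, limma adjusted p = 0.0147).

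Among 11 genes of the isoprenoid branches that leave the sterol pathway, 2 were called higher and none lower, beside 1.18% and 1.33% of all genes. NUS1, a subunit of the enzyme that makes the dolichol precursor, had 203, 189 and 217 in Scr-sh and 341, 339 and 324 in SALL4-sh (log2 fold change 0.72, limma adjusted p = 0.0229). RABGGTB, a subunit of the transferase that attaches geranylgeranyl groups to Rab proteins, had a log2 fold change of 0.85 (limma adjusted p = 0.0318). None of 8 genes of SREBP processing and sterol sensing was called in either fit, and without adjustment 1 had a limma p under 0.05 in each direction. Among 8 measured sterol genes outside the members none was called over all genes. With the filter NPC2, which moves cholesterol out of lysosomes, was called higher (0.70, limma adjusted p = 0.0246) and STARD3, a sterol transfer protein of endosomes, lower (-1.06, adjusted p = 0.0186).

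Among 25 genes of fatty acid synthesis outside the members LPIN2, a relative of LPIN1, was called higher (log2 fold change 0.94, limma adjusted p = 0.0459). With the filter the elongase ELOVL4 (1.25) and the dehydratase HACD2 (0.74) were also called higher, and the acyl-CoA synthetase ACSL1 (-0.78) and the malic enzyme ME1 (-1.12), a source of NADPH, lower. Of 17 genes of fatty acid oxidation none was called over all genes, while 5 had an unadjusted p under 0.05 in the higher and 3 in the lower direction, beside 9.55% and 7.87% of all genes. With the filter 3 of the 15 then tested were called lower and 2 higher, beside 5.54% and 5.95% of all genes. Those lower were HADHA (-1.80), a subunit of the mitochondrial trifunctional protein, ETFB (-1.51), an electron carrier, and ACADVL (-1.03), the very long chain dehydrogenase. CPT1A (0.91), which admits fatty acids to mitochondria and is inhibited by malonyl-CoA, and the nuclear receptor PPARA (0.79) were called higher in the same fit.

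**Figure D5:**
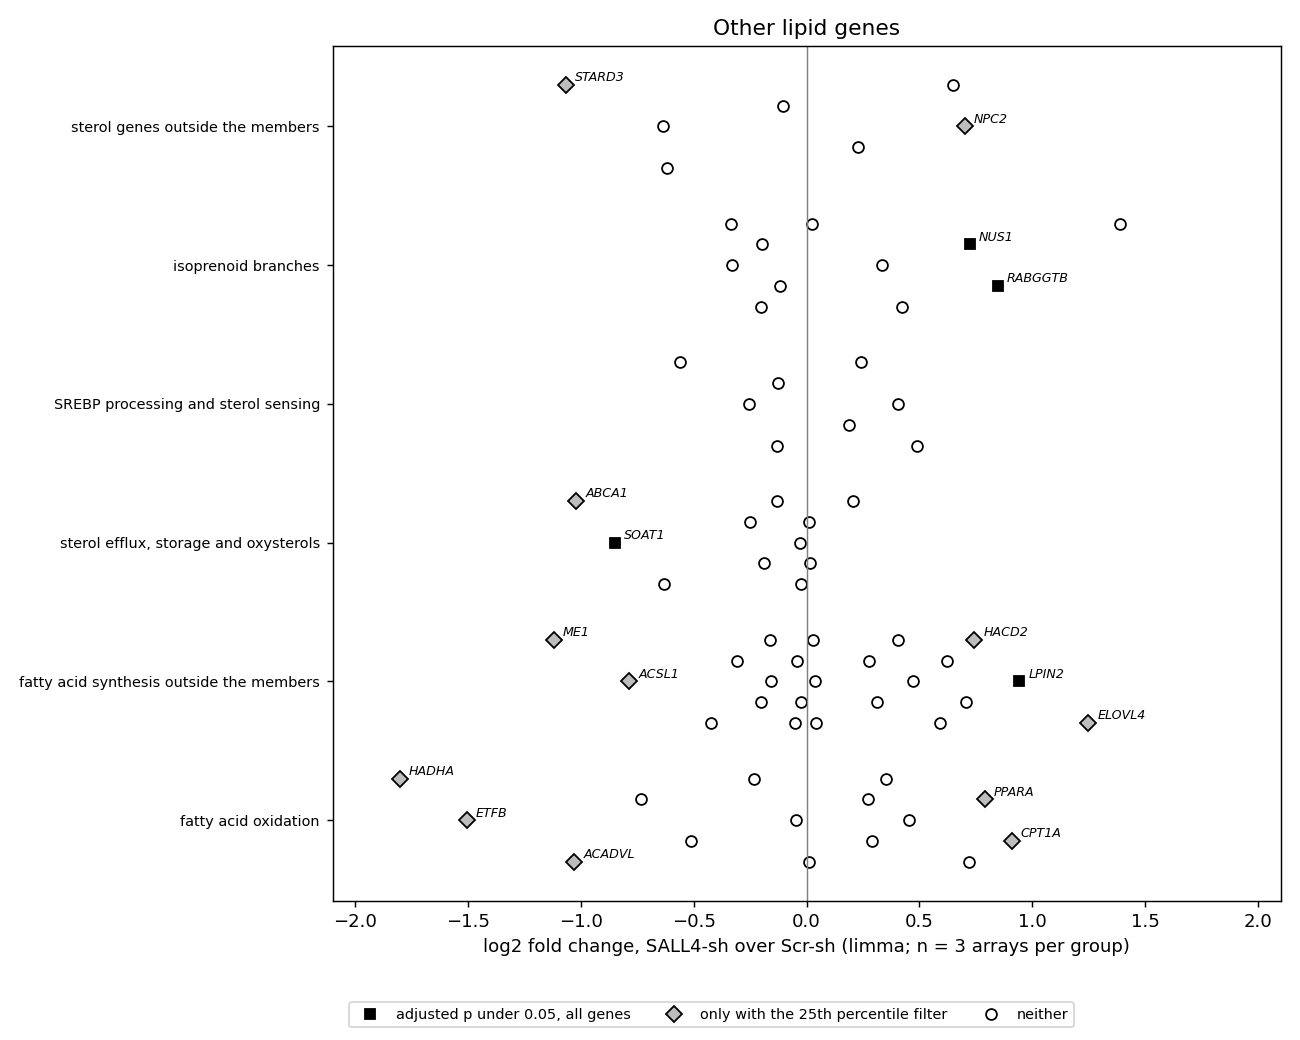
Log2 fold changes, SALL4-sh over Scr-sh (limma, 3 arrays per group), of the lipid genes outside the members that were above the floor, by list, with vertical position within a list only to separate points. SOAT1 (-0.85) was called lower and NUS1 (0.72), RABGGTB (0.85) and LPIN2 (0.94) higher over all genes, and grey points passed only with the intensity filter.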

How the data were processed

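RNA from 6 samples of H661 cells, 3 Scr-sh and 3 SALL4-sh as titled in the labels, was hybridised to Affymetrix arrays. A single table was deposited by the authors, with a normalized intensity on a linear scale for 32321 probe sets and no value below 8. The submitters' processing notes name RMA, with version and genome build not given in the sources used here. Such background correction and normalization hold arrays to a like distribution, and the floor compresses differences of weak genes. Arrays have no read depth, and their number limits the precision.

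The log2 of the intensity was taken. Probe sets with exactly 1 symbol in the platform annotation (19158) were used, and each of 18404 genes was represented by its brightest probe set, by the mean over the arrays. Those with several symbols (1388) were left out, except where named. The test between groups was that of limma (version 3.58.1, R version 4.3.3; lmFit, then eBayes with no trend, all genes, Benjamini-Hochberg adjustment over all genes, threshold 0.05), and single values with exact permutation tests over the 20 labelings. The scripts were tested on simulated data. The study's account of the arrays names a one-way ANOVA, of which limma is the moderated form, and its statistical methods name no test for arrays. The 3893 genes at the floor on every array have no spread, and the prior degrees of freedom were 0.422 over all genes and 5.33 with the 25th percentile filter, so calls of both fits are given.

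Values of all arrays are given for members that passed either fit, or whose groups were separated by at least 0.5 on the log2 scale, and for the regulators except SCAP, which is given by its ranges. IDI1, CYP51A1, SCD and LPIN1 are also given by their values, outside that rule. From each other list at most 4 genes that passed either fit were named, by smallest p. ME1 and CPT1A, the fifth of their lists, and the genes said to be so were chosen after their values were seen. The members and lists were chosen with earlier results of these data known. Alternatives were other normalizations, filters, tests and probe set rules, the replicate block and each array left out. Some genes of these pathways are not reported here.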

Additional observations from a re-analysis of the deposited data

Results flagged for a closer look

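The probe set that HSD17B7, a ketoreductase of sterol C4-demethylation, shares with its pseudogene HSD17B7P2 was outside the comparisons because the signals of both transcripts cannot be told apart. Its intensity was 40.0, 59.4 and 65.2 in Scr-sh 1 to 3 and 87.0, 81.6 and 83.6 in SALL4-sh 1 to 3. All SALL4-sh values lay above all Scr-sh values, and the group means differed by 0.65 on the log2 scale. It stands here as a signal in data that no comparison used. The brighter probe set that FDPS shares with FDPSP2 was likewise unused and lay in the other direction. Its intensity was 21.8, 16.9 and 25.8 in Scr-sh 1 to 3 and 14.0, 17.4 and 18.5 in SALL4-sh 1 to 3. These groups overlapped, with a log2 difference of -0.35. A dimmer probe set with the same symbols read 8 for every sample.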

How the results depend on the processing

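Median centring, a second quantile normalization, cyclic loess and averaging of probe sets per gene left the counts of called members and regulators as above and moved the branch medians by less than the spread between replicates. Leaving out genes at the floor gave 2 sterol members called higher, SQLE and NSDHL, and 1 fatty acid member lower, where 633 of all 14511 genes were called higher and 610 lower. The 25th percentile filter gave 1 and 1, of 821 and 764 among all 13803 genes. With trend, eBayes gave 1 fatty acid member lower, of 273 genes higher and 318 lower among 18404. One-way ANOVA called 0 sterol members lower and 0 fatty acid members higher after adjustment, of 47 genes higher and 64 lower in all. Without adjustment, ANOVA and limma each gave 6 sterol members higher and 1 lower, and 1 fatty acid member higher and 2 lower, of 1520 genes higher and 1275 lower in all by ANOVA and 1757 and 1449 by limma. Same-numbered samples had correlations of their deviations from the group means of 0.197, 0.169 and 0.00794. Those of Scr-sh 1, 2 and 3 with SALL4-sh samples of another number reached at most -0.0707, 0.0573 and 0.0683. Numbers 1 and 2 thus lay above these values and number 3 did not. Not all were above 0.1, so the numbers were not taken as pairs, although a partial pairing is not excluded. With the replicate block, 0 sterol members were lower and 0 fatty acid members higher (adjusted p of ACAT2 0.0705 and of ACACA 0.146 from limma), and 3 genes in all were higher and 7 lower, beside 218 and 244 without it. SALL4 (-1.97) then had an adjusted p of 0.115. With each array left out in turn, limma called 0 to 1 sterol members higher, 0 lower, 0 fatty acid members higher and 0 to 1 lower, and the fatty acid median ran from -0.10, without Scr-sh replicate 2, to 0.23. ACAT2 and ACACA kept their direction in each of these fits but passed in none, with adjusted p of 0.0664 to 0.107 and of 0.0511 to 0.127, and SALL4 (-2.07 to -1.87) passed in 1 of 6 (0.0309 to 0.0741). Regulators called lower were 0 to 1. Of the other lipid genes, 3 called higher and 1 lower over all genes, 0 to 1 were higher and 1 lower with an array left out, 0 and 0 with the replicate block, 0 higher by adjusted ANOVA, 2 lower after cyclic loess, 3 lower with trend, 6 and 7 without genes at the floor, 8 and 8 with the filter, and 14 and 12 by ANOVA and 17 and 12 by limma without adjustment. Over all genes 23 to 231 were higher and 29 to 173 lower in the fits with an array left out, and 199 and 337 after cyclic loess. The filter without Scr-sh replicate 2, chosen after seeing the data, gave 1 sterol member higher, 2 fatty acid members lower and 1 regulator lower. It also gave 5 other lipid genes higher and 7 lower, beside 911 and 676 of all 13803 genes, and a fatty acid median of -0.10. The floor hides any difference in STARD4, and changes of weak members such as MVK may be understated.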
